A study of Homo sapiens with 3 samples.

Results

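The zinc finger gene clusters of human chromosome 19 were described here through the double-stranded RNA (dsRNA) regions that fall inside them. Members were chosen by position alone: every dsRNA region whose interval overlaps 1 of 5 windows of chromosome 19 in the hg19 build. The first window is 19900000 to 24100000, the second is 36600000 to 38400000, the third is 44300000 to 45000000, the fourth is 52400000 to 54000000 and the fifth is 56100000 to 59100000. The windows cover 11.3 Mb and hold 2625 of the 13941 regions on chromosome 19 and of the 271645 regions in all. All 2625 lie wholly inside a window. The groups are Dicer knockdown HEK 293 cells and wild-type (wt) HEK 293 cells for dsRNA, and wild-type HEK 293 cells for DICER chromatin immunoprecipitation (ChIP). HEK 293 is a human embryonic kidney cell line. Each group is 1 library, so every comparison below is between 2 libraries and carries no p-value, and the regions are not replicates. How the knockdown was made, and a value for DICER1 itself, were not analysed here.

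Zinc finger genes of the KRAB family encode DNA-binding proteins with tandem C2H2 zinc fingers. They arose by repeated local duplication, so neighbours in a cluster are alike in sequence. Many of their proteins bind retroelements and recruit the corepressor TRIM28, which brings silencing chromatin. The ribonuclease DICER processes long dsRNA and the hairpin precursors of microRNAs into small RNAs. In the dsRNA libraries, total RNA was digested with nuclease T1, which cuts single-stranded RNA, and what remained was sequenced. The value of a region is its summit, the height of read coverage at its top, as a whole number and not divided by library size. The sources used here do not say how reads with several genomic matches were handled, and whether near-identical zinc finger genes share reads was not tested.

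The label was checked against gene order in the RefSeq table (GRCh38.p14), which served for names and order only. Between ZNF90 and ZNF254, the outer genes of the list for the first window, 31 of 33 protein-coding genes carry a zinc finger symbol. The same held for 29 of 30 genes between ZNF565 and ZNF573 for the second window and for 18 of 18 between ZNF45 and ZNF180 for the third. It held for 37 of 44 between ZNF613 and ZNF813 for the fourth and for 67 of 87 between ZNF787 and MZF1 for the fifth. Outside these runs of genes, 88 of 1239 protein-coding genes of chromosome 19 (7.10%) have such a symbol. That share is low only beside the runs, and 88 of the 270 genes of chromosome 19 with such a symbol lie outside them. The runs are bounded by listed genes and not by the window ends, so these counts are not the content of the windows. Genes in a window but beyond its run count as outside here.

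The windows as a whole held slightly fewer dsRNA regions per Mb than the rest of chromosome 19, but they differed greatly among themselves. They held 232.3 regions per Mb, against 237.7 per Mb over the rest of chromosome 19, measured from its first to its last listed region. This is a ratio of 0.977. It was 0.892 with the 5 Mb after the first window left out of the rest, and 0.910 at a mean summit of 3 or more. The second window held 565 regions per Mb and the third 422.9. The fifth held 198.7, the fourth 138.8 and the first 117.6, so the densest and the sparsest window differed by more than the windows and the rest of the chromosome did. The median gap between neighbouring regions was 454 bp in the second window and 578 bp in the third. It was 1273 bp in the fifth, 1601 bp in the first and 3343 bp in the fourth, against 911 bp over the rest of chromosome 19.

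**Figure D1:**
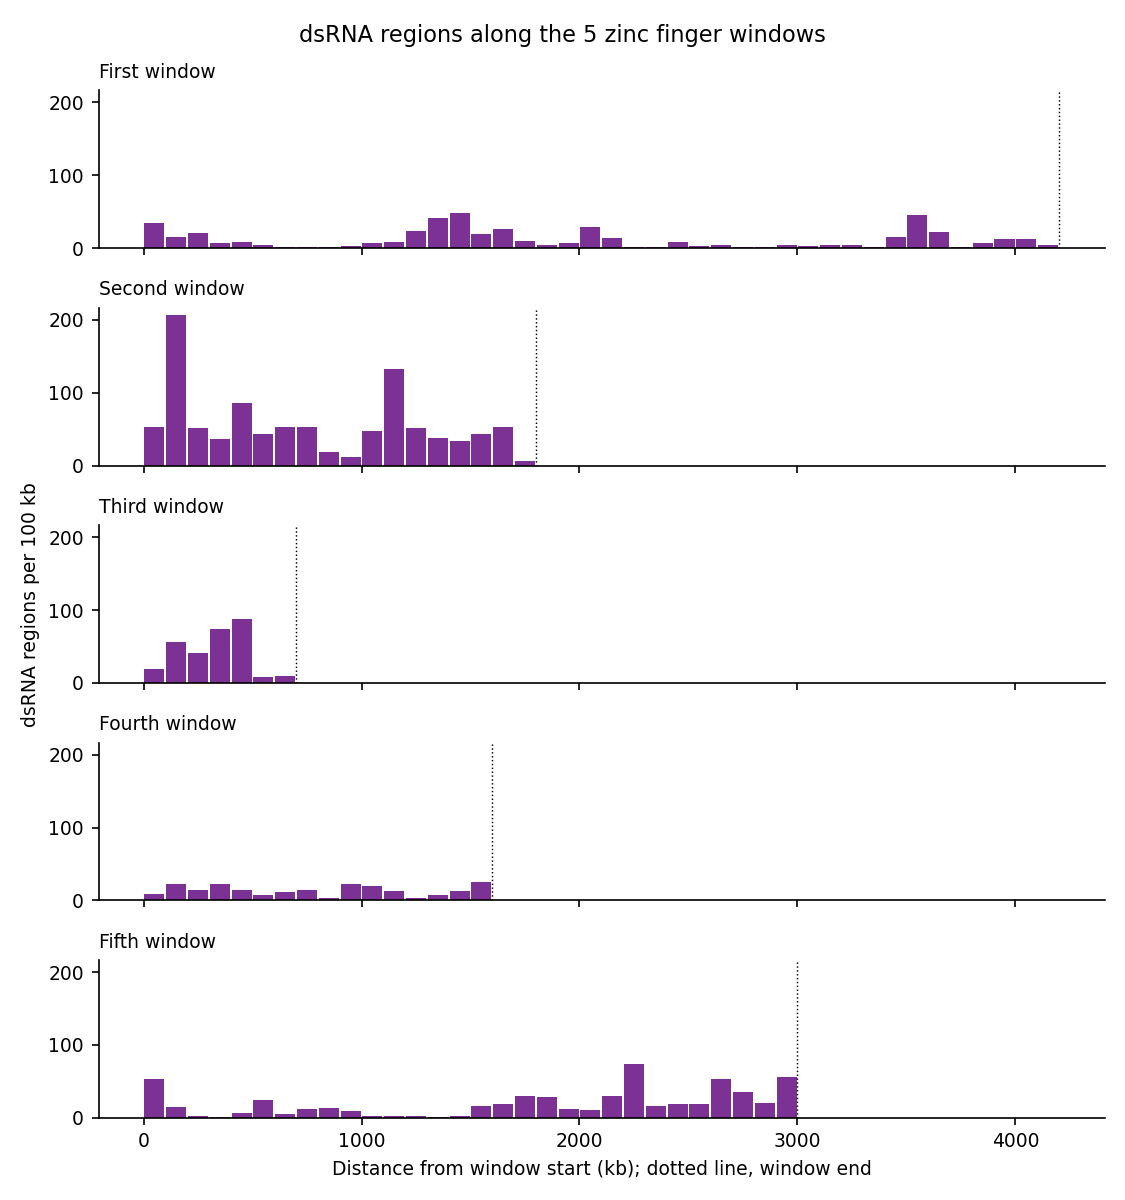
Number of dsRNA regions per 100 kb (y axis) against distance from the start of each window in kb (x axis), 1 panel per window, with a dotted line at the window's end. A single bar of the second window reaches 206 and another reaches 132, while the median over all 113 bars is 14.

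The densest 100 kb stretch of the whole region list lies in the second window. The stretch from 36700000 to 36800000 held 206 regions, and it ranked first among 24403 stretches of that size with any region, whose median was 5. The next stretch, on chromosome 12, held 144. The stretch from 37700000 to 37800000, also in the second window, had rank 5 with 132. Over the rest of chromosome 19 the highest was 96 and the median 22. At the other end, 43 of the 113 stretches in the windows held fewer than 10 regions.

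Part of the second window's density came from 3 long runs, in which each region lay within 2000 bp of the next. The longest run, at 36756388 to 36803791, held 147 regions in 47.4 kb and was the longest of 126011 runs over all chromosomes by number of regions. The run at 37758775 to 37794923 had rank 3, with 101 regions in 36.1 kb. The run at 36704302 to 36735775 had rank 9, with 63 regions in 31.5 kb, and it ends 20.6 kb before the longest run begins. These 3 runs hold 311 regions, 30.6% of those in the second window, and they were chosen with their values in view. The longest run on the rest of chromosome 19 held 47 regions. No gene was assigned to the runs, because no hg19 annotation was used here.

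The long runs were made of low regions, and most of these were lower in knockdown. In the longest run the median summit was 2 in knockdown and 4 in wild type, and the highest summit was 13 in knockdown and 51 in wild type. Knockdown was below wild type at 103 of its 147 regions, equal at 27 and above at 17, before scaling. That is 70.1% below, against 55.2% on the rest of chromosome 19 and 51.2% of all regions, so a lower summit in knockdown was common outside the run too. Among regions with a mean summit of 3 to below 10, the share below was 59 of 65 in the run (90.8%), against 69.3% on the rest of chromosome 19 and 65.7% of all regions. Its summits added up to 326 in knockdown and 780 in wild type, a ratio of 0.400 after knockdown was scaled to the wild-type sum of all summits (factor 0.958), and of 0.585 when scaled to the median ratio. The regions covered 12.3 kb in knockdown and 17.5 kb in wild type, so the run was both lower and less covered. Sums over regions move with how much was called, and the covered length fell by less than the summed height.

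In the other 2 runs the summed summits were also lower in knockdown, by different amounts. In the run at 36704302 the summits added up to 249 in knockdown and 622 in wild type, a scaled ratio of 0.383 (0.561 scaled to the median ratio), with 5.51 kb and 7.78 kb covered. Its median summit was 2 in knockdown and 8 in wild type. In the run at 37758775 they added up to 267 in knockdown and 377 in wild type, a scaled ratio of 0.678 (0.991 scaled to the median ratio), with 7.38 kb and 9.51 kb covered. There the knockdown summit was lower at 53 of 101 regions, equal at 23 and higher at 25, before scaling. On the rest of chromosome 19 it was lower at 55.2% of regions, and over all regions at 51.2%. The count of this run therefore does not stand apart from the background.

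**Figure D2:**
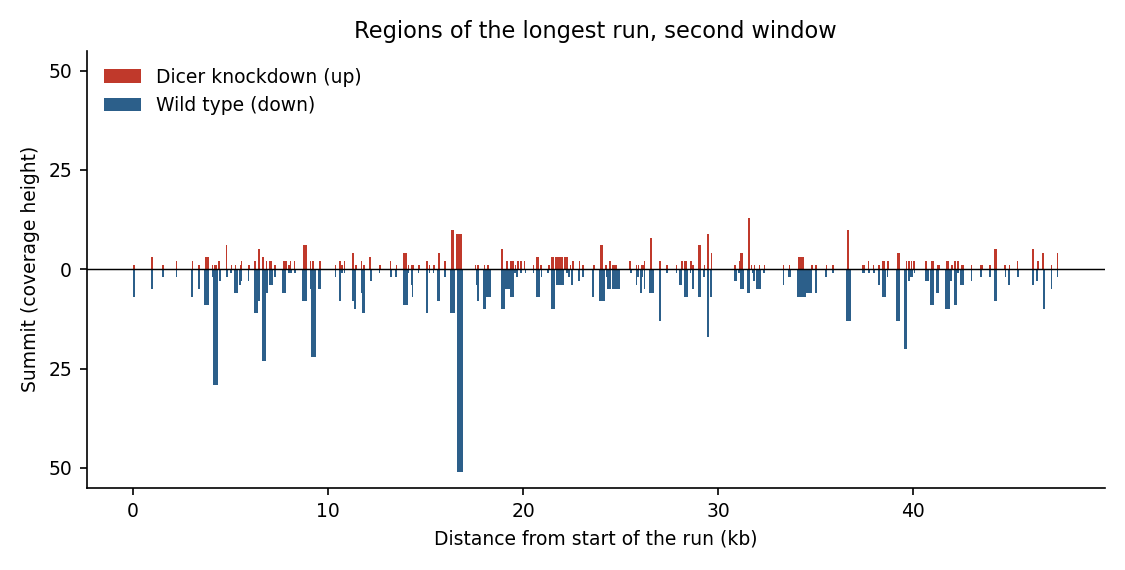
Summit of each of the 147 regions of the longest run (y axis, coverage height; Dicer knockdown upwards, wild type downwards) against distance from the start of the run in kb (x axis), with bar widths to scale down to 0.08 kb. Wild-type bars reach 51 and knockdown bars 13, and both libraries have regions along all of the 47.4 kb.

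Most regions in the windows were low in both libraries. The median summit was 2 in knockdown (quartiles 1 and 4) and 3 in wild type (quartiles 2 and 6). Over the rest of chromosome 19 it was 2 in knockdown (quartiles 2 and 4) and 4 in wild type (quartiles 2 and 8). A mean summit of 20 or more was reached by 96 of the 2625 window regions (3.66%, exact 95% binomial interval 2.97% to 4.45%) and by 789 of 11316 elsewhere on the chromosome (6.97%, 6.51% to 7.46%). The intervals cover counting over regions only and do not overlap. By window this share was 2.26% in the second, 3.04% in the third, 4.45% in the first, 4.53% in the fifth and 6.76% in the fourth, so the window with most regions per Mb had the lowest share of well-covered ones. The windows hold 18.8% of the regions of chromosome 19 but 9.09% of its summed height in knockdown and 8.03% in wild type. Within the windows, 6 regions made up 81.5% of the summed height in knockdown and 72.6% in wild type.

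Those 6 are also the window members of the deposited final set, whose 1003 regions all exceed a summit of 1500 in knockdown and in wild type. They are 0.229% of the window regions, against 0.486% of the other chromosome 19 regions and 0.369% of all regions, and the exact intervals for the windows (0.0839% to 0.497%) and the rest of the chromosome (0.366% to 0.632%) overlap. The first window holds 2 of them and the fifth holds 4, while the second, the third and the fourth hold 0. The highest by mean summit, at 22877603 to 22877721 in the first window, had a summit of 22358 in knockdown and 23541 in wild type. The region at 58378608 to 58378753 in the fifth window had 12200 in knockdown and 13139 in wild type, and that at 21295890 to 21296033 in the first had 6423 and 6848 in the same order. With knockdown scaled to the sums, the folds of these 3 were 0.910, 0.889 and 0.898, and scaled to the median ratio they were 1.33, 1.30 and 1.31, so their direction rests on the scaling. In the region at 58378608 the knockdown interval was 145 bp wide and the wild-type interval 323 bp, at nearly equal height.

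The region at 58874834 to 58874940 in the fifth window, also in the final set, had a summit of 31866 in knockdown and 9015 in wild type, 3.38-fold higher after scaling, with intervals of 106 bp in both. Over the other scalings its fold was 3.53 to 4.95, so its direction does not rest on the scaling. In knockdown it was the highest region of the windows, and in wild type it came after the regions at 22877603 and 58378608. Among the 13 window regions that were 2-fold or more higher, the next by level was at 23457784 to 23457859 in the first window, with 826 in knockdown and 326 in wild type (2.42-fold). The region at 23082822 to 23082881, also in the first window, had 714 in knockdown and 487 in wild type. No gene was assigned to these 3.

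The longest region of the fifth window by mean width, at 59061470, was 628 bp wide in knockdown and 647 bp in wild type. It was low, with a summit of 23 in knockdown and 40 in wild type, and no gene was assigned to it. The region at 59067087 in the same window was 520 bp wide in knockdown and 521 bp in wild type, with summits of 13 in knockdown and 18 in wild type. In the second window, some regions were placed at genes without zinc fingers: POLR2I, a subunit of RNA polymerase II, and CAPNS1, the small subunit of calpain. No hg19 annotation was used, so these were placed from general knowledge of that build. Their spacing in the RefSeq table, which is of another build, was the only check (36630 bp over the regions and 36644 bp in the table). It is a single distance between chosen regions, so it cannot decide which gene a region belongs to. These genes were named after their values were seen.

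At POLR2I the 3 regions from 36604610 whose mean summit reached 100 had summits of 177, 284 and 324 in knockdown, against 221, 287 and 388 in wild type. The last of them was the highest region of the second window. In the stretch placed at CAPNS1 there were 15 regions, of which 13 were lower and 2 equal in knockdown before scaling, beside the 51.2% of all regions that were lower. Among regions with a mean summit of 3 to below 10, the share lower was 65.7% of all regions and 69.3% on the rest of chromosome 19. The first region at CAPNS1, at 36630984, had 121 in knockdown and 331 in wild type, 2.84-fold lower in knockdown after scaling. Its last, at 36640714 and 526 bp wide in knockdown, had 48 in knockdown and 61 in wild type. Summed over the 15 regions, the heights were 241 in knockdown and 575 in wild type, a scaled ratio of 0.401, and 0.587 scaled to the median ratio. Over the 3 high regions of POLR2I alone, the ratio of sums was 0.839, and 1.23 scaled to the median ratio, so its direction turns with the scaling. Lower regions beside these 3 were left out of that sum, so the ratios of the 2 genes are not set against each other.

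The longest region of all the windows was at 24010019 to 24010937 in the first window, 918 bp wide in knockdown and 913 bp in wild type. It had a summit of 1020 in knockdown and 1599 in wild type, and it was the only window region above 1500 in 1 library but not in both. The next longest, at 44611610 to 44612411 in the third window, was 801 bp wide in knockdown and 819 bp in wild type, with summits of 16 in knockdown and 10 in wild type. The highest region of the third window, at 44676237, had only 60 in knockdown and 50 in wild type. The highest of the fourth, at 53630990 and 51 bp wide in knockdown, had 541 in knockdown and 494 in wild type. The third window thus had many regions per Mb and no high one.

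The comparison the design implies, knockdown against wild type, was made on the 239 window regions whose summits in both libraries add up to 20 or more, with a pseudocount of 1. Their median log2 ratio was -0.56 (95% interval over regions -0.68 to -0.36), a fold of 0.679. Over the 1624 such regions on the rest of chromosome 19 it was -0.63 (-0.69 to -0.59), and over all 35876 regions -0.53. Of the 239 window regions, 174 were below 0 and 65 above. By 2-fold or more, 76 were lower in knockdown (31.8%, exact 95% interval 25.9% to 38.1%), against 34.5% on the rest of the chromosome and 30.8% of all regions. By 2-fold or more, 13 were higher (5.44%, 2.93% to 9.12%), against 3.45% and 5.07%. Both shares lie near the background, so as a whole the windows do not stand apart. The second window weighs on these values: without it the median log2 ratio was -0.28, with 35 of 157 regions lower by 2-fold or more. Most of the 76 were low: 65 had a combined summit under 50. At a combined summit of 20, an equal split has an exact 95% interval of 27.2% to 72.8%, so counting error spans 2-fold there even if each unit of height is a separate molecule.

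The scaling sets the size of this median. It was -0.50 with no scaling. When knockdown was scaled by the median ratio of the 35876 regions it was -0.03, and when the top 1% of regions was left out of the sums it was -0.09. These last 2 shift the scaling by 0.55 and 0.49 log2 units, in that order. With them, 39 and 42 of the 239 window regions were lower by 2-fold or more, and 31 and 26 were higher. Over all 35876 regions, 6340 and 6609 were lower and 4601 and 4133 higher, against 11049 and 1819 when scaled to the sums. The counts thus moved in the same way outside the windows.

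The ratio differs with level, so the windows were also set beside the other chromosome 19 regions within classes of mean summit. At 10 to below 30 the median log2 ratio was -0.64 over 182 window regions (interval -0.82 to -0.50) and -0.85 over 1099 others (-0.90 to -0.77). At 30 to below 100 it was -0.37 over 30 window regions and -0.46 over 303 others. At 100 to below 300 it was -0.25 over 10 and -0.45 over 103, and at 300 to below 1000 it was -0.08 over 10 and -0.35 over 49. In each of these 4 classes the window median was the higher of the pair, but the intervals overlapped in every class. From 1000 the order turned: the 2, 2 and 3 window regions of the top classes had medians of -0.74, -0.37 and -0.14, against 0.001, 0.54 and 0.45 over 33, 22 and 15 others. Weighted by the window regions per class, the median was -0.56 in the windows and -0.72 elsewhere on chromosome 19, a difference of 0.16. That difference was 0.03 without the first window and 0.40 without the second. Weighted in that way, 36.6% of the others were lower by 2-fold or more, against 31.8% in the windows. No test was made of this difference.

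**Figure D3:**
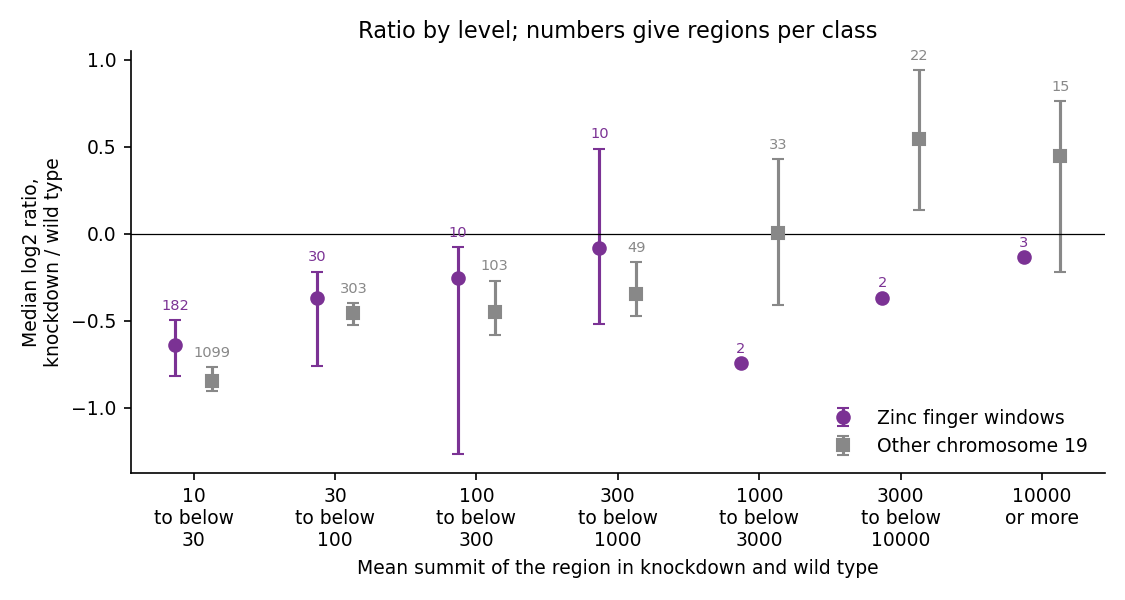
Median log2 ratio of knockdown over wild type (y axis) by class of mean summit (x axis) for the zinc finger windows (circles) and the rest of chromosome 19 (squares), with 95% intervals over regions where the class is large enough for one. Window medians are the higher ones below 1000 and the lower ones from 1000, where they rest on 2, 2 and 3 regions.

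The single windows differed more than this. In the second window the median log2 ratio was -1.02 (interval -1.21 to -0.73) over 82 regions, and in the third -0.93 (-1.33 to 0.08) over 24. It was -0.58 (-0.68 to -0.18) over 55 regions of the fifth, -0.22 (-0.79 to 0.15) over 24 of the fourth and -0.12 (-0.28 to 0.12) over 54 of the first. The intervals of the second and first windows do not overlap. Regions lower by 2-fold or more numbered 41 of 82 in the second window (50.0%) and 11 of 24 in the third (45.8%), against 12 of 55 in the fifth, 5 of 24 in the fourth and 7 of 54 in the first (13.0%). Weighted to each window's classes, the share elsewhere on chromosome 19 was 39.1% for the second and 38.0% for the third. It was 34.4% for the fifth, 34.5% for the fourth and 35.3% for the first. Only the exact interval of the first window (5.37% to 24.9%) leaves out its share. Those of the second (38.75% to 61.25%) and the third (25.55% to 67.18%) include theirs. All intervals here count regions as separate draws, and the shares elsewhere were taken as fixed. Over all 2625 window regions, 54.0% of the gaps between neighbours were 1 kb or less. Regions may thus not be independent, and the intervals may be too narrow. With the medians of the other chromosome 19 regions weighted in the same way, the order of the windows stayed as it was. The difference in median log2 ratio was -0.20 for the second window, -0.16 for the third, 0.12 for the fifth, 0.44 for the fourth and 0.62 for the first. From the densest window to the sparsest the order was the same as from the lowest median ratio to the highest. With 5 windows no correlation was computed.

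The sign of the first and the fourth window turns with the scaling. Scaled to the median ratio, the window medians were 0.42 for the first, -0.50 for the second, -0.41 for the third, 0.32 for the fourth and -0.04 for the fifth. When the top 1% of regions was left out of the sums they were 0.36, -0.55, -0.47, 0.26 and -0.09 in that order. Since a scaling moves every window alike, the distance between the first and second windows stayed at about the same size.

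**Figure D4:**
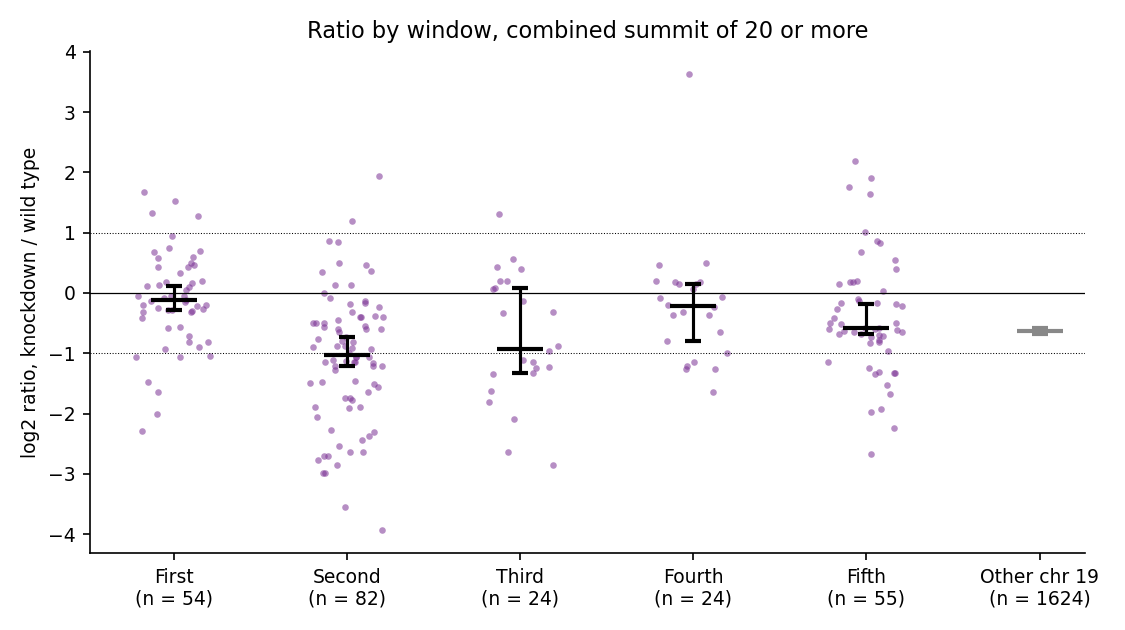
Log2 ratio of knockdown over wild type (y axis) for window regions at a combined summit of at least 20 (points), by window (x axis), with the median and its 95% interval over regions, and the median of the rest of chromosome 19 at the right. The second window centres at -1.02 and the first at -0.12, and dotted lines mark 2-fold.

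The extreme ratios were nearly all low regions. The 5 highest ratios came from the second, the fourth and the fifth window. The region at 53730535 in the fourth had a summit of 64 in knockdown and 4 in wild type (12.5-fold), and that at 58672908 in the fifth had 18 and 3 in the same order. The regions at 36612425 and 57146466 had 23 and 34 in knockdown, against 5 and 8 in wild type, and the last of the 5 is the final-set region at 58874834. The 5 lowest came from the second window, with 4, and the third, with 1. The region at 36760558 lies in the longest run and had 1 in knockdown and 29 in wild type. That at 37834056 had 1 in knockdown and 22 in wild type, those at 36718530 and 36765588 each had 2 and 22, and that at 44729507 had 3 and 27. These 5 ratios rest on knockdown heights of 1 to 3.

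Regions also narrowed. Over the 2625 window regions the median width was 56 bp in knockdown and 65 bp in wild type, with a median log2 width ratio of -0.061 (interval -0.084 to -0.037), against 57 bp, 70 bp and -0.084 (-0.097 to -0.075) elsewhere on chromosome 19. In the windows 1466 regions were narrower in knockdown, 942 wider and 217 of equal width. The second window had the strongest narrowing, with 57 bp in knockdown and 75 bp in wild type (-0.15, -0.18 to -0.10), and in the first the median log2 width ratio was 0. Width at least halved at 9.87% of all window regions, against 9.74% elsewhere on the chromosome and 7.56% of all regions. It did so at 152 of the 1017 regions of the second window (15.0%) and at 37 of the 494 of the first (7.49%). The first window thus lies near the share of all regions and below that elsewhere on chromosome 19. Height and width come from the same reads, so they are not separate measures. Among the 76 regions lower by 2-fold or more, 8 also halved in width, against 3 of the 150 within 2-fold. Elsewhere on chromosome 19 these were 68 of 560 (12.1%) and 16 of 1008 (1.59%), close to the 10.5% and 2.00% in the windows.

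In 104 window regions (3.96%) both ends were the same in both libraries, against 3.85% elsewhere on chromosome 19. A summit of 1 in both libraries was listed for 223 (8.50%), against 8.62%. In these 2 measures the windows and the rest of the chromosome were alike in value.

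No DICER ChIP peak of the deposited list lies in the windows. Of the 119 peaks, 6 are on chromosome 19, all outside, and 0 of 119 allows a share of up to 2.52%, taking 3 counts as the limit that a count of 0 allows. The windows hold 2625 of the 271645 dsRNA regions, a smaller share than this limit, so the count of 0 does not set them apart. The nearest peaks are at 36537847 to 36538048, 61952 bp before the second window, and at 56038045 to 56038306, 61694 bp before the fifth. Their scores in the authors' list are 147.5 and 102.8. The first of these overlaps a dsRNA region with a summit of 81131 in knockdown and 50190 in wild type, and the second overlaps none. At window regions the share with a peak is 0 of 2625, which allows up to 0.114%. Of the 11316 other chromosome 19 regions, 9 (0.0795%) overlap a peak, and of all 271645 regions 115 do (0.0423%). Shares of that size were therefore not detectable with this many window regions. These limits cover counting error only.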

How the data were processed

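HEK 293 dsRNA was measured in 1 Dicer knockdown and 1 wild-type library, and DICER ChIP in 1 wild-type library. The submitters' processing notes name bcl2fastq 1.8.4 and BWA 0.7 for dsRNA, Bowtie 0.12.7 and MACS 1.4 for ChIP, and hg19 for both. The calling of dsRNA regions is not described in the sources used here. The deposited summit is a coverage signal, not normalized, and the deposited peak score is the authors' own. Both dsRNA samples carry the same workbook, so its sheets named induced and normal were read as knockdown and wild type by name alone; if that is wrong, every direction reverses. The sheets hold only regions paired row by row, and at 17 window pairs the intervals do not overlap. Library depth is unknown.

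Windows were taken from the rule, and coordinates are printed as deposited for dsRNA and counting from 1 for peaks. Log2 ratios used a pseudocount of 1 after scaling to summed summits. Intervals are binomial order statistics (medians) or exact binomial (shares; for peaks at 0, the limit is 3 counts), in Python 3.11.15 with scipy 1.17.1, tested on simulated data. Named regions were the 10 highest, the highest per window, the 5 highest and 5 lowest ratios, the final set, those at peaks (0) and the 5 longest by mean width; 3 of these regions are not reported here. The gene lists for the windows held 29, 29, 18, 32 and 70 symbols, of which 29, 27, 17, 32 and 69 matched a protein-coding entry. Members and lists were chosen with earlier results of these data known. No sequence is printed.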

Additional observations from a re-analysis of the deposited data

How the results depend on the processing

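No paired analysis was possible because there is 1 library for each group, and no replicate could be left out. The median log2 ratio of the windows was -0.56. It was -0.034 scaled to the median ratio, -0.090 with sums without the highest 1% of regions, -0.31 where the combined summit reached 50, and -0.28 without the second window. Of 239 regions, the 76 lower by 2-fold or more became 39 and 42 under the first 2 of these settings. They became 11 of 69 where the combined summit reached 50, and 35 of 157 without the second window. The 13 higher of 239 became 31 and 26 of 239 and 4 of 69 for the first 3 of these, and 8 of 184 without the fifth window. With no filter on summit, 652 were lower and 106 higher of 2625. Shares over other regions were not computed at a combined summit of 50 or with no filter. The class-weighted difference from other chromosome 19 was 0.16, and 0.40 without the second window. It was 0.03 without the first, 0.01 with no filter and 0.06 where it had to reach 50. The median log2 width ratio was -0.061, -0.023 at a mean summit of 20 or more and -0.030 without the second window. The share of 3.66% at a mean summit of 20 or more was 9.10% at 10 or more and 1.52% at 50 or more, against 14.4% and 3.20% elsewhere on chromosome 19. Regions per Mb were 0.977 times those elsewhere, 0.712 times without the second window and 1.26 times without the first.

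Settings chosen after seeing the data were these. Without the 3 longest runs the median was -0.43, with 61 of 218 regions lower by 2-fold or more, and the class-weighted difference was 0.21. Without the densest 100 kb the median was -0.44. The mean of the 5 window medians was -0.57. The cause of these moves was not tested. Where the construction itself changed, fewer or more regions were counted. Low heights limit most window regions, and the depth of neither library is known.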
